A study of Mus musculus with 33 samples.

Results

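The genes described here encode the mitochondrial respiratory chain and ATP synthase, set apart by the genome that carries them. Nuclear encoded members were the symbols that begin with Nduf, Uqcr, Atp5 or Cox4 to Cox8 and the 4 genes Sdha to Sdhd, without pseudogene symbols ending in -ps, and mitochondrially encoded members were the mt-Nd, mt-Co, mt-Atp and mt-Cytb genes. This rule found 111 of the 56748 gene IDs in the count table, 98 nuclear and 13 mitochondrial. Of the nuclear IDs, 41 belong to complex I, 8 are complex I assembly factors (Ndufaf), 4 belong to complex II, 8 to complex III, 19 to complex IV and 18 to ATP synthase (complex V). The symbols also take in a few genes that are not subunits, among them Atp5s, an assembly factor, and Cox7a2l, which joins complexes into supercomplexes. After a filter on low counts 91 nuclear and all 13 mitochondrial members remained. The 7 nuclear IDs that were filtered out held few counts over all libraries: Ndufa4l2 had 34, Cox8b 19, Cox7b2 12, Ndufa11b 11 and Cox8c 8, and Ndufs6b and a second Atp5o ID had 0.

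Polyadenylated RNA of mouse bone marrow was sequenced in 33 libraries, 3 for each of 11 populations, and the study set out to follow stem cell fate decisions. Hematopoietic stem cells of the long-term (LT-HSC) and short-term (ST-HSC) kind, multipotent progenitors (MPP) and the lineage progenitors were sorted after depletion of lineage-positive cells. These progenitors are common myeloid cells (CMP) and their daughters of the granulocyte-macrophage (GMP) and megakaryocyte-erythroid (MEP) kind, and common lymphoid cells (CLP). Mature CD3e T cells, B220+ cells and CD11b+ cells were sorted as well, and for BM the labels name no sort. The labels give no strain, age, sex, treatment or sort gate for any population, and they do not say that the replicates came from separate animals, so the p-values rest on a spread between libraries that may be only technical. In such bulk samples fewer cells of a type and less RNA per cell cannot be told apart.

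The respiratory chain of the inner mitochondrial membrane passes electrons from NADH (complex I) and succinate (complex II) through coenzyme Q, complex III and cytochrome c to oxygen at complex IV, and complexes I, III and IV pump protons that drive ATP synthase. Complex II is wholly nuclear encoded, whereas the core of the other complexes mixes subunits imported from the cytosol with a few made from mitochondrial DNA, so assembly draws on both genomes. Hematopoietic stem cells are known for a low rate of respiration and a reliance on glycolysis, and respiration is known to rise as progenitors divide and differentiate.

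Library totals ran from 11997186 to 32022325 counts. Over genes with 20 to 2000 counts, pairs of libraries of 1 population differed by a chi-square of 1.06 to 1.87 per gene, except the pairs with MEP replicate 1 (2.39 and 2.51) and with CLP replicate 2 (2.14 and 2.26), so results on MEP and CLP that move without these libraries are given both ways. Some labels were met by a single defining marker. Slamf1 was at 35.5 ± 0.6 CPM (SD, n = 3) in LT-HSC, Gata1 at 835 ± 13 in MEP and Elane at 21042 ± 612 in GMP. Cd79a was at 3708 ± 25 in B220+ cells and Cd3e at 202 ± 3.5 in CD3e T cells. CPM here are edgeR's scaled read counts, with library sizes adjusted by its TMM factors. Others were met less well: Elane was also at 9170 ± 129 in MPP, and Il7r, a marker of the lymphoid gate, was at 45.7 ± 2.8 in CLP, close to the 42.9 ± 1.1 in CMP. The lymphoid progenitor genes Dntt (222 ± 5.3 CPM in CLP, against 2459 ± 15 in CMP) and Flt3 (253 ± 4.1 in CLP, against 743 ± 1.2 in CMP) went against these labels, and the myeloid gene Mpo was at 1192 ± 26 in CLP and 966 ± 5.1 in CMP, so CLP and CMP stand below for the sorts as labelled. Several sorts also held markers of other cell types. The 8 plasma cell and B lineage markers summed to 34107 to 34834 CPM in MPP libraries. The 8 mast cell, basophil and eosinophil markers summed to 8862 to 9151 in MPP and 9431 to 9867 in CLP. In CD3e T cells the 8 T lineage markers summed to 2943 to 2984 CPM. Neutrophil (13391 to 13555), B lineage (7528 to 7609), mast cell (6591 to 6622) and erythroid (5449 to 5523) lists summed to more there. In LT-HSC the 8 stromal and endothelial markers summed to 3360 to 3372, against 1096 to 1117 for 12 stem and progenitor gate genes.

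Promoters are shown first, because the nuclear members that move together below are often described as sharing the factors NRF1, GABPA (an ETS factor) and YY1. RefSeq windows (GRCm38.p6), from 250 bases before to 50 after the start, were found for 76 of 97 nuclear symbols, 2 of them through an older symbol. The motif GCGCATGCG (NRF1) on either strand was in the windows of 10 of these 76 genes (13.2%), against 1.95% of all 27025 genes with a window. The motif CCGGAAG (ETS) was in 18 (23.7%, against 9.93%), and AAGATGGCG (YY1) in 8 (10.5%, against 1.64%). None of the 3 words holds another, but the NRF1 word is nearly its own complement, so a match on both strands can be 1 site. At least 1 of the 3 was in 39.5% of the members' windows and in 12.7% of all. A match is a description of letters in this window, not of a bound site.

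The 6 windows printed belong to Uqcrc1, a core subunit of complex III and one of the most changed members, and to isoform families whose shares differ between populations: Cox6b1 and Cox6b2 of complex IV, and Atp5g1, Atp5g2 and Atp5g3, which encode the same c-subunit of ATP synthase. Their positions in GRCm38.p6 are chr9:108936398-108936697 on the plus strand for Uqcrc1, chr7:30626065-30626364 on the minus strand for Cox6b1, chr7:4753045-4753344 on the minus strand for Cox6b2, chr11:96075582-96075881 on the minus strand for Atp5g1, chr15:102670998-102671297 on the minus strand for Atp5g2 and chr2:73911277-73911576 on the minus strand for Atp5g3. Capitals mark the motif matches, an NRF1 word in Uqcrc1 and Atp5g2 and an ETS word in Cox6b1. Cox6b2, Atp5g1 and Atp5g3 hold none of the 3 words in this window.
Uqcrc1: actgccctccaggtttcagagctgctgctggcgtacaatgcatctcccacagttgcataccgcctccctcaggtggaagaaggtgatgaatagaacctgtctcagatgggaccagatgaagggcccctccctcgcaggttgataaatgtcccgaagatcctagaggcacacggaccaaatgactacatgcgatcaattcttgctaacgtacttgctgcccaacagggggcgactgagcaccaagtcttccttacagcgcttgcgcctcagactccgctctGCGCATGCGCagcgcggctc
Cox6b1: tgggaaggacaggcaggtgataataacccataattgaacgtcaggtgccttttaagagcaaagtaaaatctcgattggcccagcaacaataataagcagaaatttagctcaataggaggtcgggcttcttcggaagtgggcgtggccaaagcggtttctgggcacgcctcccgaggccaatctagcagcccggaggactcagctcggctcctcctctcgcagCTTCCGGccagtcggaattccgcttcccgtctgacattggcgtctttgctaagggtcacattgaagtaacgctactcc
Cox6b2: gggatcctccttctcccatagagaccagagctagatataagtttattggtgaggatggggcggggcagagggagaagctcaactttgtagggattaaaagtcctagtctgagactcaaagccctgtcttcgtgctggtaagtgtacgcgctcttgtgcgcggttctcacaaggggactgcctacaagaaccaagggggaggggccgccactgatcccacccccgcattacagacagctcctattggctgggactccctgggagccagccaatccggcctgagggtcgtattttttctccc
Atp5g1: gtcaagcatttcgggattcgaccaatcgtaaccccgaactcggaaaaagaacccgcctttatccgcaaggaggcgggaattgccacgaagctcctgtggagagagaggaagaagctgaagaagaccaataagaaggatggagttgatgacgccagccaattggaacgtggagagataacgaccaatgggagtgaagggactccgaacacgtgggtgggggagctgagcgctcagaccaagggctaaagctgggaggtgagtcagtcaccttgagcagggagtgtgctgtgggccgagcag
Atp5g2: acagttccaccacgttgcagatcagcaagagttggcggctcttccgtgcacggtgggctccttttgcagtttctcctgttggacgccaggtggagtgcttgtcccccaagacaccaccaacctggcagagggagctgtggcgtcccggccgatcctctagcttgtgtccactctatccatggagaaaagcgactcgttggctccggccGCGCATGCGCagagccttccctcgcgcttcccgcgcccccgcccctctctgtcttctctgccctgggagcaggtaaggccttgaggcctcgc
Atp5g3: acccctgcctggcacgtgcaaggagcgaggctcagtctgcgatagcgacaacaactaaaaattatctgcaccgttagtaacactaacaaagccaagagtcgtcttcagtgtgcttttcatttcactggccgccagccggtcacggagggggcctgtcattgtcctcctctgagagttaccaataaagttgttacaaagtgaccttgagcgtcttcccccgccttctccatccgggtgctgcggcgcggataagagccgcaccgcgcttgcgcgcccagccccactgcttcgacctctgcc

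Across the 11 populations the nuclear encoded members had their highest sums in MEP and GMP and their lowest in CLP. Their summed level was 48724 ± 1157 CPM (SD, n = 3) in MEP, 42553 ± 1083 in GMP, 21164 ± 332 in MPP, and 6344 ± 147 in CLP, with ST-HSC at 8710 ± 43 and LT-HSC at 8527 ± 53. On this scale the remaining populations lay close together, from 11067 ± 83 in CD3e T cells to 12763 ± 132 in CMP. As a share of raw counts they lay further apart. The share was 1.69% in CMP, 1.42% in B220+ cells, 1.22% in CD3e T cells, 0.862% in CD11b+ cells and 0.859% in BM. ST-HSC, at 1.43%, and LT-HSC, at 1.38%, then stood above CD3e T cells, CD11b+ cells and BM. MEP (3.43%) and GMP (2.51%) stayed highest, and CLP (0.789%) was lowest but close to BM. Of the 91 members, 58 had their highest mean in MEP and 26 in GMP, and 67 had their lowest in CLP. With scaling by library size alone 66 were highest in MEP and 6 in GMP, and 40 were lowest in CLP and 27 in BM. MEP was also the highest population of 14.7%, GMP the highest of 8.06% and CLP the lowest of 12.1% of all 20464 genes tested.

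The mitochondrially encoded members followed another order. Their sum was 54803 ± 2761 CPM in MEP and 40803 ± 469 in CMP, but only 20249 ± 519 in GMP, where the nuclear sum was near its top, and 23300 ± 664 in CLP, where the nuclear sum was at its lowest. The sum was 6354 ± 101 CPM in CD11b+ cells, in which 12 of the 13 genes had their lowest mean, as did 12.2% of all genes tested. In the stem cells the sum was 8985 ± 51 in ST-HSC and 9275 ± 77 in LT-HSC. As a share of raw counts, which needs no scaling factor, the 13 genes took 5.41% ± 0.012 in CMP, 3.86% ± 0.086 in MEP and 0.460% ± 0.0070 in CD11b+ cells, so CMP and not MEP was highest on that scale.

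**Figure D1:**
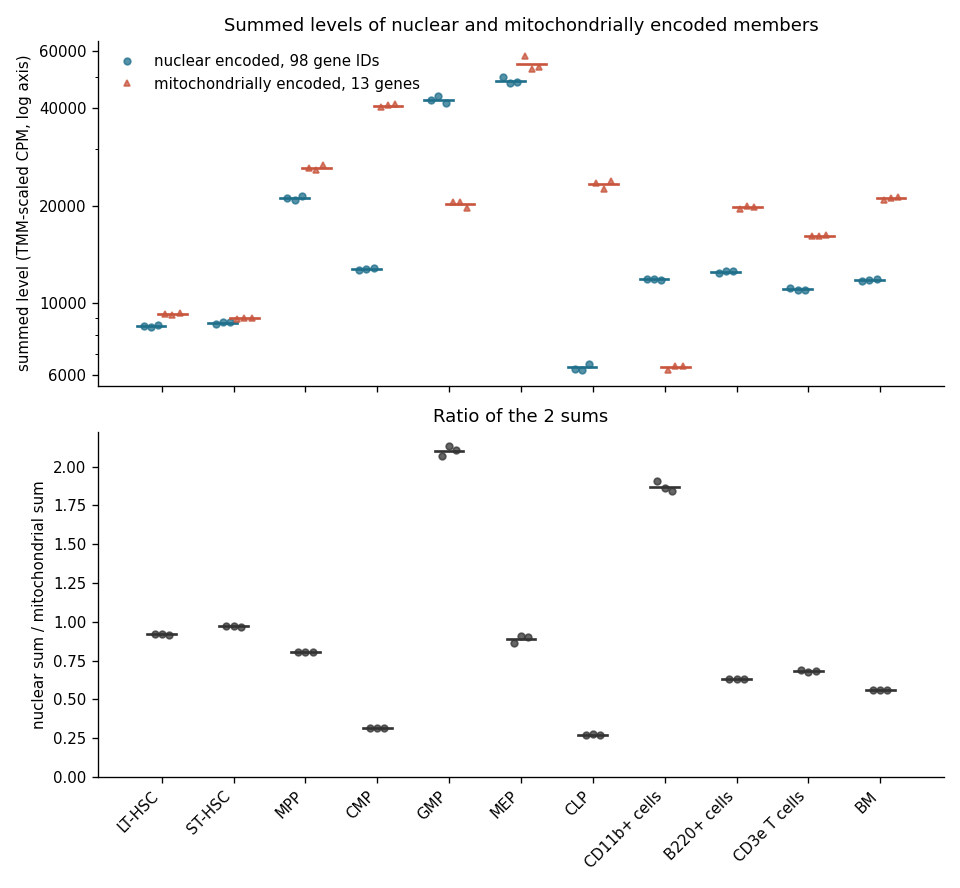
Summed TMM-scaled CPM of nuclear (circles) and mitochondrially encoded members (triangles) in each library of the 11 populations, on a log axis, and below it the ratio of the sums. Points are libraries and lines are means of 3. GMP and CD11b+ cells stand above a ratio of 1, with means of 2.10 and 1.87, and CMP and CLP lie lowest, at 0.313 and 0.272.

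The ratio of the nuclear to the mitochondrial sum within a library does not depend on scaling. It was 2.10 ± 0.028 in GMP and 1.87 ± 0.038 in CD11b+ cells, the only populations with more nuclear than mitochondrial counts. It was 0.969 ± 0.0014 in ST-HSC, 0.919 ± 0.0031 in LT-HSC, 0.890 ± 0.023 in MEP and 0.806 ± 0.00024 in MPP. CD3e T cells (0.684 ± 0.0069), B220+ cells (0.632 ± 0.00081) and BM (0.560 ± 0.0023) followed, and CMP (0.313 ± 0.00092) and CLP (0.272 ± 0.0052) came last. The libraries of neighbours in this order did not overlap, and LT-HSC (0.916 to 0.922) and MEP (0.863 to 0.905) came closest relative to their spread. With the counts of near-identical nuclear copies added to their genes the order was the same, from 2.04 ± 0.034 in GMP to 0.269 ± 0.0041 in CLP. Reads that match both loci and were counted at neither, if there were any, would be missing from these ratios too. The order changed in part when the mitochondrial sum was taken over mt-Nd1, mt-Nd2, mt-Nd5, mt-Nd6 and mt-Cytb alone, which have no such copy. That sum also leaves out mt-Co1, which held 7157813 counts over all libraries and whose chromosome 1 copy held 44851. The ratio was then 5.48 ± 0.024 in GMP and 3.89 ± 0.089 in CD11b+ cells. It was 1.96 ± 0.0072 in LT-HSC and 1.96 ± 0.01 in ST-HSC, which overlap, 1.87 ± 0.014 in MEP and 1.83 ± 0.0052 in MPP. BM (1.61 ± 0.00081), B220+ cells (1.53 ± 0.0038) and CD3e T cells (1.37 ± 0.017) came in the opposite order, and CMP (0.617 ± 0.0023) and CLP (0.606 ± 0.022) overlapped. GMP, at 2.10 over all 13 genes, and CMP, at 0.313, lay far apart, although they are neighbours in the usual scheme.

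The complexes did not move in step. The summed level of complex V over that of complex I was 2.86 ± 0.045 in GMP, 2.86 ± 0.061 in MEP and 2.68 ± 0.020 in MPP, against 2.29 ± 0.026 in BM, 1.79 ± 0.0098 in CLP, 1.62 ± 0.0088 in CMP, 1.56 ± 0.017 in LT-HSC, 1.54 ± 0.0067 in B220+ cells, 1.44 ± 0.010 in ST-HSC, 1.29 ± 0.0031 in CD3e T cells and 1.09 ± 0.0068 in CD11b+ cells. Atp5b, the catalytic beta subunit of ATP synthase, made up 23.8% ± 0.55 of the nuclear sum in MEP and 22.1% ± 0.32 in GMP, and 9.63% ± 0.15 in CD11b+ cells. Per kilobase of merged exons it averaged 2732 CPM in MEP and 192 in CLP. Ndufs1, the largest core subunit of complex I, ran differently: the ratio of Atp5b to Ndufs1 was 76.8 ± 3.1 in GMP, 35.7 ± 1.1 in MPP and 33.4 ± 2.1 in MEP, and between 10.5 ± 0.17 (CLP) and 22.6 ± 0.30 (BM) in the other populations. Ndufs1 itself was at 126, 124 and 117 CPM in the GMP libraries and at 371, 326 and 347 in those of MEP, while Atp5b was at 9251, 9729 and 9218 in GMP and 11571, 11537 and 11618 in MEP.

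**Figure D2:**
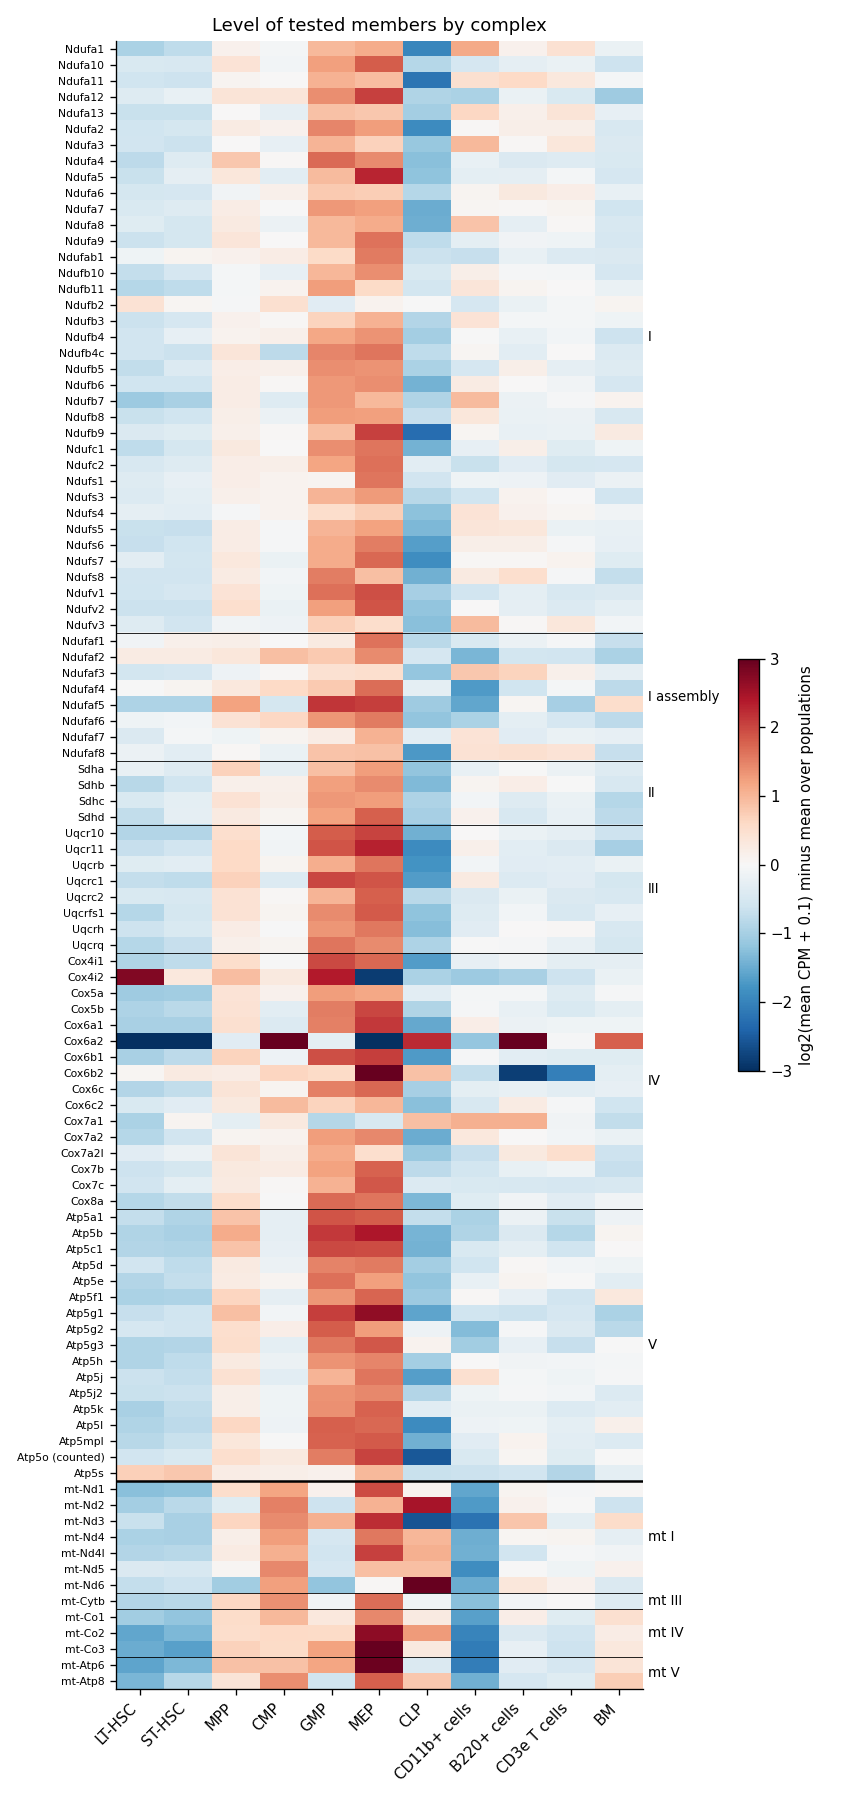
Mean level of the tested members except 1 that is not drawn (rows, by complex, with the mitochondrially encoded genes at the bottom) in each population (columns), as log2(mean CPM + 0.1) minus the mean over the 11 populations; colours end at 3 on either side. GMP and MEP are red and CLP blue for most nuclear members, whereas the mitochondrial rows are red in CMP and MEP and blue in CD11b+ cells.

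Tests were made by edgeR's quasi-likelihood test on the counts of all 33 libraries, with Benjamini-Hochberg adjustment over the 20464 genes tested and 0.05 as the threshold. By the test of any difference among populations all 91 nuclear and all 13 mitochondrial members were called, as were 99.9% of all genes. The spread between libraries was very small, with a common coefficient of variation of 1.83%, so changes of a few percent passed, and the size of a change is given throughout. Comparisons that name ST-HSC, MPP, CMP, GMP or CLP share those libraries with each other, so their values are set side by side and not correlated.

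**Figure D3:**
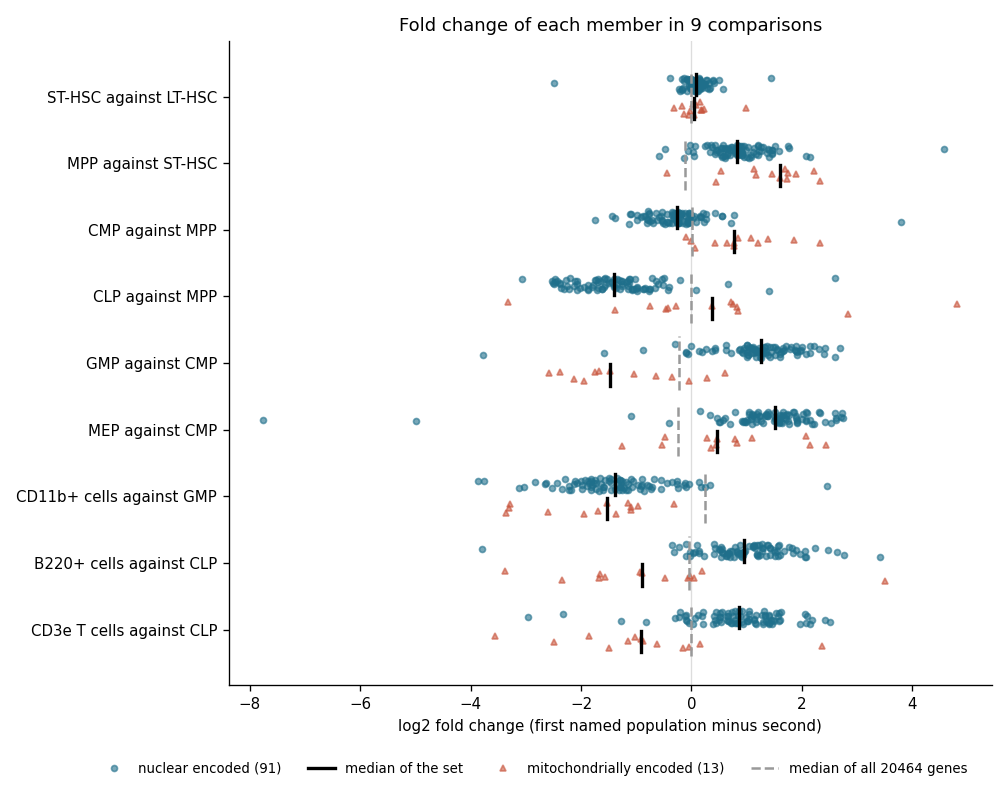
Log2 fold change of each tested nuclear (circles) and mitochondrially encoded (triangles) member in the 9 comparisons, with the median of each set (black) and of all 20464 genes (grey, dashed); positive values are higher in the population named first. The sets part most clearly in GMP against CMP, with medians of 1.26 and -1.48.

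ST-HSC differed little from LT-HSC. Of the nuclear members 45 were higher and 12 lower in ST-HSC, with 29.8% and 34.1% of all genes called higher and lower, and their median log2 fold change was 0.09 against -0.01 over all genes. All 4 complex II genes passed, 3 of them higher: Sdhd, a membrane anchor of succinate dehydrogenase, was at 143, 149 and 147 CPM in ST-HSC, against 105, 103 and 103 in LT-HSC. These groups do not overlap, and the log2 fold change was 0.50 (SE 0.029, edgeR adjusted p = 2e-31). Sdha, the flavoprotein that oxidises succinate, was lower at 426, 431 and 428 CPM in ST-HSC, against 481, 475 and 488 in LT-HSC (log2 fold change -0.17). In complexes I, III and V the changes were as small, at most 0.39 in size in complex I (Ndufa4), 0.32 for Uqcrfs1, the Rieske iron-sulfur protein, and 0.22 for Atp5k. Complex IV held the exceptions, Cox4i2, described with its family below, and Cox7a1, which was at most 0.962 CPM in any library. Of the mitochondrial members 2 were higher (mt-Nd2 and mt-Cytb) and 2 lower (mt-Nd3 and mt-Co1), none by more than a log2 fold change of 0.31 in size. With trends on GC content and length taken out none was higher and 5 were lower, and 1 was higher with relative log expression factors, no filter, copies added, limma-voom or DESeq2, as it was when any LT-HSC library, ST-HSC replicate 2 or ST-HSC replicate 3 was left out.

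MPP libraries held more of nearly all members than ST-HSC libraries when scaled by TMM. Of the nuclear members 82 were higher and 1 lower, with 33.6% and 40.0% of all genes called, but with library size alone 26 were higher and 54 lower. That scaling shifted the median of all genes from -0.11 to -1.09, and relative to it the median of the nuclear members was 0.94 on both scales. Large rises were those of Atp5b (log2 fold change 2.08, SE 0.024), Uqcrc1 (1.46), Cox6b1 of complex IV (1.46) and Sdha (1.08), each also positive with library size alone. Atp5b was at 4602, 4617 and 4766 CPM in MPP, against 1084, 1108 and 1106 in ST-HSC, with no overlap (adjusted p = 6.8e-102 by edgeR). The member that fell was Atp5s, at a log2 fold change of -0.59.

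In the same comparison 12 of 13 mitochondrial members were higher in MPP, and none was lower, while with library size alone 7 were higher and 3 lower. mt-Nd1, a complex I subunit, was at 3859, 3767 and 3866 CPM in MPP and 1135, 1133 and 1142 in ST-HSC, and mt-Co1, the catalytic subunit of complex IV, rose by a log2 fold change of 1.73 (SE 0.025). mt-Nd5 rose less, with a log2 fold change of 0.53, and its sign turned with library size alone (-0.46), as did that of Sdhd (0.53 and -0.46). The groups also differed in markers of other cells: all of the 8 plasma cell and B lineage markers were counted in MPP, with sums of 34107 to 34834 CPM, against 248 to 257 in ST-HSC, where Mzb1 was at 0, and the mast cell, basophil and eosinophil markers summed to 8862 to 9151 in MPP, against 28.9 to 30.6. The macrophage markers, all 8 counted in both, summed to 6160 to 6327 CPM in MPP, against 1319 to 1350 in ST-HSC. The part of these lists in the changes was not tested.

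CMP and CLP were each set against MPP. In CMP 11 nuclear members were higher and 64 lower than in MPP, but 70 higher and 15 lower with library size alone, with 35.0% of all genes called in each direction, and the median log2 fold change was -0.26 against 0.01. The direction of these calls rests on the scaling: by library size the all-gene median became 0.68. Relative to all genes the median was -0.27 by TMM and -0.26 by library size, and with trends on GC content and length taken out 36 were higher and 40 lower. Atp5b was at 1738, 1778 and 1816 CPM in CMP, against 4602, 4617 and 4766 in MPP (log2 fold change -1.39, SE 0.023), and Uqcrc1 was at 318, 314 and 322, against 683, 678 and 699 (-1.11). Neither pair of groups overlaps, and both stayed negative with library size alone. The large rise was that of Cox6a2, a complex IV isoform gene described with its family below.

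The mitochondrial members rose in CMP: 10 of 13 were higher than in MPP and none was lower, with a median log2 fold change of 0.77. mt-Nd5 was at 3132, 3186 and 3216 CPM in CMP, against 1192, 1198 and 1240 in MPP, a log2 fold change of 1.39 (SE 0.025, edgeR adjusted p = 7.5e-81). mt-Co1 changed less (0.42), and mt-Nd2 (1.86) and mt-Nd6 (2.32), complex I subunits, changed most. The 3 that did not pass were mt-Co2, mt-Co3 and mt-Atp6, which share their sequence with nuclear copies. Markers of other cells also differed between these groups: the plasma cell and B lineage markers summed to 974 to 1017 CPM in CMP, against 34107 to 34834 in MPP, the mast cell, basophil and eosinophil markers to 26.3 to 30.9 in CMP, against 8862 to 9151 in MPP, and the macrophage markers to 38.9 to 52.0 in CMP, against 6160 to 6327 in MPP. All 8 genes of each list were counted in both, and their part in the changes was not tested.

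CLP had the lowest nuclear sum of all populations. Of the nuclear members 87 were lower and 3 higher than in MPP, with 37.4% and 39.6% of all genes called, and 78 were lower with library size alone. The median log2 fold change was -1.41 over the nuclear members and 0.00 over all genes, and library size alone moved that of all genes to 0.57. Atp5b was at 809, 795 and 841 CPM in CLP, against 4602, 4617 and 4766 in MPP, and Uqcrc1 at 130, 129 and 136, against 683, 678 and 699. No CLP library came near an MPP library for either gene (log2 fold changes -2.52, SE 0.025, and -2.38, SE 0.028). Other large falls were those of Ndufb9, an accessory subunit of complex I (-2.44), Uqcr11 of complex III (-2.49), Cox6b1 of complex IV (-2.36), Sdha (-1.88) and Atp5o, which links the parts of ATP synthase (-3.07). Atp5o is annotated under 2 IDs, of which 1 held all the counts, and its transcripts overlap those of Donson. The plasma cell and B lineage markers, all 8 counted in both, summed to 519 to 537 CPM in CLP, against 34107 to 34834 in MPP. The stromal and endothelial markers, all 8 counted too, summed to 2112 to 2222 in CLP, against 213 to 218 in MPP. The macrophage markers, again all 8 counted, summed to 69.0 to 72.6 in CLP, against 6160 to 6327 in MPP. The part of these lists in the changes was not tested.

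In CLP 4 mitochondrial members were higher and 5 lower than in MPP, or 9 higher and 3 lower with library size alone, and they did not move as a set. mt-Nd2 was at 1476, 1381 and 1412 CPM in CLP, against 194, 201 and 204 in MPP (log2 fold change 2.83, SE 0.041), and mt-Nd6 at 291, 267 and 313, against 9.36, 12.3 and 9.85 (4.81, SE 0.22). mt-Cytb fell (-0.75), as did mt-Nd3 (-3.32, or -3.93 without CLP replicate 2), and mt-Nd1 was lower by TMM (-0.43) but higher with library size alone (0.16) and with the GC content and length trend taken out (0.14). Within libraries mt-Nd6 stood at 13.4% ± 0.92 of mt-Nd5 in CLP, against 0.870% ± 0.14 in MPP and at most 2.36% ± 1.1 in any other population. mt-Nd2 stood at 50.1% ± 1.5 of mt-Nd1 in CLP, against 5.21% ± 0.17 in MPP and at most 12.9% ± 0.32 elsewhere. mt-Nd6 is the only protein gene on the light strand of mitochondrial DNA, and as the use of strand in counting was not given, its counts may hold reads of the opposite strand.

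**Figure D4:**
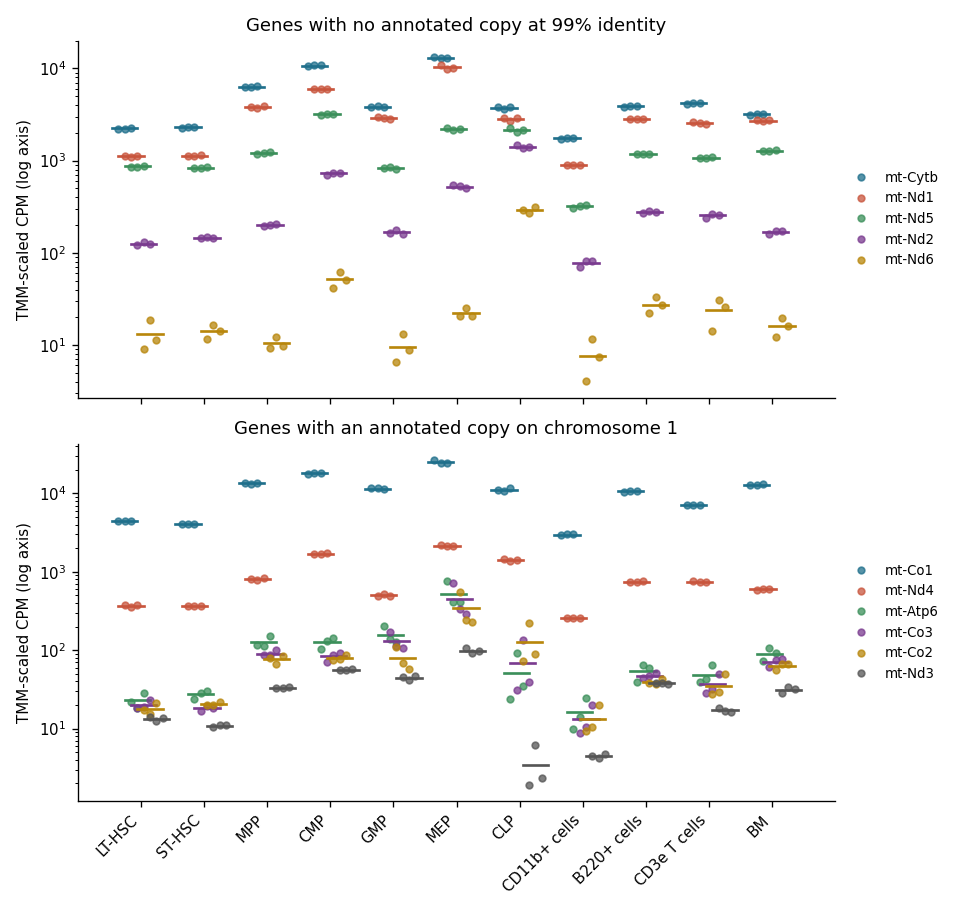
TMM-scaled CPM of mitochondrially encoded genes in each library on log axes, above those with no annotated nuclear copy at 99% identity and below those with a copy on chromosome 1 (mt-Nd4l and mt-Atp8, both low, are not drawn). Points are libraries and lines are means. mt-Nd2 and mt-Nd6 are highest in CLP, and the libraries of mt-Co2, mt-Co3 and mt-Atp6 lie far apart in MEP and CLP.

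Scaled by TMM, most nuclear members were higher and most mitochondrial ones lower in GMP than in CMP. In GMP 83 nuclear members were higher and 3 lower than in CMP, or 47 higher and 33 lower with library size alone, with 31.8% and 41.9% of all genes called, whereas none of the mitochondrial members was higher and 10 of 13 were lower. The all-gene median was -0.22 by TMM and -1.37 by library size, and the median of the nuclear members relative to all genes was 1.47 by TMM and 1.45 by library size. Uqcrc1 was at 1697, 1735 and 1661 CPM in GMP, against 318, 314 and 322 in CMP (log2 fold change 2.42, SE 0.025, edgeR adjusted p = 1.3e-107). Atp5b rose as much, at 9251, 9729 and 9218 CPM in GMP, against 1738, 1778 and 1816 in CMP (2.40). Cox6b1 (2.08) and Sdha (1.2) rose in complexes IV and II, and the assembly factor Ndufaf5 rose by 2.69, and none of these 5 turned sign under any alternative, although Sdha was no longer called with library size alone (0.03).

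Of the mitochondrial members mt-Nd5 was at 822, 845 and 803 CPM in GMP, against 3132, 3186 and 3216 in CMP (log2 fold change -1.95, SE 0.026). mt-Co1 was at 11751, 11716 and 11256, against 17864, 18104 and 18278 (-0.64), and mt-Nd6 fell by 2.38 on the log2 scale. The 3 genes that did not pass were again mt-Co2, mt-Co3 and mt-Atp6. The mast cell, basophil and eosinophil markers, all 8 counted in both sorts, summed to 3719 to 3938 CPM in GMP, against 26.3 to 30.9 in CMP, and their part was not tested.

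In MEP both genomes were high. Of the nuclear members 86 were higher and 4 lower than in CMP, with 34.1% and 44.3% of all genes called, and with library size alone 74 were higher. The median log2 fold change was 1.52, against -0.25 over all genes or -1.17 with library size alone, and relative to all genes it was 1.77 on both scales. Atp5g1, a c-subunit gene of ATP synthase, was at 1301, 1271 and 1296 CPM in MEP, against 193, 195 and 195 in CMP (log2 fold change 2.73, SE 0.026, edgeR adjusted p = 2.4e-110), and Atp5b (2.70) and Uqcrc1 (2.31) rose nearly as much. Ndufa5 of complex I (2.61), Sdhd of complex II (1.71), Uqcr11 of complex III (2.42) and Cox6b2 of complex IV (2.60) also rose, and these 7 genes kept their sign under every alternative run.

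The mitochondrial members were mixed in MEP, with 9 higher and 3 lower than in CMP, or 3 higher and 7 lower with library size alone. mt-Nd1 was at 10793, 9826 and 10117 CPM in MEP, against 5970, 5943 and 5975 in CMP, a log2 fold change of 0.78 that turned to -0.13 with library size alone. mt-Co1 likewise changed sign with the scaling (0.47, and -0.44 with library size alone), while mt-Nd5 was lower (-0.53, but 0.11 with the GC content and length trend taken out) and mt-Nd6 fell by 1.25 on the log2 scale. mt-Co3 rose most, by 2.44 (SE 0.32), yet its libraries were at 718, 341 and 289 CPM in MEP, against 70.7, 87.9 and 93.5 in CMP, and without MEP replicate 1 the value was 1.86. The erythroid markers, all counted, summed to 32790 to 34529 CPM in MEP, against 1551 to 1613 in CMP, and their part in the changes was not tested.

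CD11b+ cells stood below GMP in both genomes. Of the nuclear members 84 were lower and 5 higher, with 32.8% and 41.3% of all genes called, and of the mitochondrial members 10 were lower and none was higher. The median log2 fold change was -1.39 over the nuclear members, -1.53 over the mitochondrial ones and 0.25 over all genes, or 0.55 with library size alone, and that of the nuclear members relative to all genes was -1.65 on both scales. ATP synthase fell most of the complexes, with 17 of 17 lower and a median of -2.00: Atp5b was at 1131, 1149 and 1155 CPM in CD11b+ cells, against 9251, 9729 and 9218 in GMP (log2 fold change -3.04, SE 0.025), and Atp5g2 at 54.7, 54.5 and 51.6, against 465, 480 and 448 (-3.12, SE 0.036). Cox4i1, the ubiquitous isoform of a regulatory complex IV subunit (-2.21), Ndufa12 (-2.34), Uqcrfs1 (-1.81) and Sdhc (-1.39) fell in the other complexes, and Ndufaf5 fell by 3.76 on the log2 scale. Ndufv3 was the complex I gene that rose most, by 0.24, and its sign turned with the GC content and length trend taken out (-0.11).

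Of the mitochondrial genes with no near-identical copy, mt-Nd1 was at 904, 903 and 887 CPM in CD11b+ cells, against 2968, 2933 and 2812 in GMP (log2 fold change -1.69, SE 0.026), and mt-Co1, whose copy covers part of it, at 2958, 3010 and 3012, against 11751, 11716 and 11256 (-1.95, SE 0.025). No library of CD11b+ cells reached any of GMP for either gene. The neutrophil markers, all counted, summed to 205561 to 209252 CPM in CD11b+ cells, against 259 to 313 in GMP, and their part in the changes was not tested.

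B220+ and CD3e T cells stood above CLP in the nuclear genome and mostly below it in the mitochondrial one. In B220+ cells 79 nuclear members were higher and 4 lower than in CLP, with 39.5% and 42.5% of all genes called, and in CD3e T cells 75 were higher and 9 lower, with 40.5% and 41.7%. Ndufa11, an accessory subunit that steadies the membrane arm of complex I, rose most within complex I in both, by a log2 fold change of 2.77 in B220+ cells, and 2.5 for CD3e T cells, as did Atp5o within ATP synthase (2.63 and 2.18) and Sdhb, the iron-sulfur subunit of complex II (1.52 and 1.31). In complex III the lead was taken by Uqcr11 (1.57) in B220+ cells and Uqcrb (1.45) in CD3e T cells. Both comparisons share the CLP libraries. The mast cell, basophil and eosinophil markers, all 8 counted in each sort, summed to 206 to 218 CPM in B220+ cells and 6591 to 6622 in CD3e T cells, against 9431 to 9867 in CLP. Neutrophil markers summed to 9429 to 9785 CPM in B220+ cells, and for CD3e T cells to 13391 to 13555, against 75.2 to 79.1 in CLP. The B220+ sums of the plasma cell and B lineage markers were 17022 to 17406 and those of CD3e T cells 7528 to 7609, against 519 to 537 in CLP. Stromal and endothelial markers summed to 257 to 263 in B220+ cells and 433 to 439 in CD3e T cells, against 2112 to 2222 in CLP. All 8 genes of these lists were counted in each sort too, and the part of these markers was not tested.

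Of the mitochondrial members 2 were higher and 8 lower in B220+ cells than in CLP, and 2 were higher and 9 lower in CD3e T cells. mt-Nd2 was at 270, 284 and 280 CPM in B220+ cells and 240, 263 and 260 in CD3e T cells, against 1476, 1381 and 1412 in CLP (log2 fold changes -2.35 and -2.48). mt-Nd6 fell by 3.37 and 3.56 on the log2 scale, whereas mt-Nd3 was higher by 3.51 in B220+ cells, and 2.36 for CD3e T cells. The level of mt-Nd3 in CLP rests in part on replicate 2, with 1.93, 6.13 and 2.33 CPM in its libraries, and without it the values were 4.13 for B220+ cells and 2.99 for CD3e T cells. The fit of the 2 populations alone left 5 of 13 lower in B220+ cells.

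In some families 1 isoform stood apart in single populations. Cox6a1 and Cox6a2 encode the ubiquitous and the heart and muscle form of the same complex IV subunit. Cox6a2 was at 134, 131 and 139 CPM in B220+ cells, against 12.9, 12.4 and 12.3 in CLP (log2 fold change 3.42, SE 0.047, edgeR adjusted p = 7.2e-95), and at 29.2, 27.7 and 29.7 in CMP, against 2.07, 1.81 and 2.25 in MPP (3.80, SE 0.11). It was at 2.69, 2.24 and 2.67 CPM in CD3e T cells, lower than in CLP by 2.33 on the log2 scale, at 2.10, 2.19 and 2.01 in GMP, and at 0, 0.165 and 0.313 in MEP. As a share of both isoforms it made up 33.7% ± 0.39 in B220+ cells, 11.4% ± 0.37 in CMP, 10.3% to 11.4% in the CLP libraries, 3.29% ± 0.35 in BM and at most 0.926% in the other 7 populations. Cox6a1 itself was 3.75-fold higher in GMP and 5.76-fold higher in MEP than in CMP.

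The markers of plasmacytoid dendritic cells, which carry B220, were looked at beside this after the values of Cox6a2 were seen. The 6 genes, all counted, summed to 6355 to 6483 CPM in B220+ cells, 1589 to 1675 in GMP, 1230 to 1322 in CLP, 706 to 730 in CMP and 580 to 592 in CD3e T cells. Much of the sum outside B220+ cells was Irf8, which other cells express too: it was at 2195 ± 24 CPM in B220+ cells, 1487 ± 40 in GMP and 995 ± 38 in CLP. Siglech, a more specific marker, was at 1558 ± 10 CPM in B220+ cells, 44.1 ± 1.9 in CLP, 6.09 ± 0.48 in CMP and 1.59 ± 0.3 in GMP, and Ccr9 was at 400 ± 0.5 in B220+ cells, 3.96 ± 0.17 in CLP, 10.4 ± 0.49 in CMP and 0.545 ± 0.27 in GMP. The part of these cells in the level of Cox6a2 was not tested.

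Cox6b2, the testis form of another complex IV subunit, was at 160, 145 and 148 CPM in MEP, against 24.9, 25.2 and 25.1 in CMP (log2 fold change 2.60, SE 0.040). Its share of Cox6b1 and Cox6b2 together was nevertheless highest in CLP, at 25.8% ± 1.3, where Cox6b1 was low. MEP (11.6% ± 0.20), ST-HSC (10.8% ± 0.63), LT-HSC (10.7% ± 0.48) and CMP (9.17% ± 0.18) followed, and the share was 1.75% ± 0.13 in CD3e T cells and 0.966% ± 0.10 in B220+ cells. Against CLP, Cox6b2 fell by 3.80 on the log2 scale in B220+ cells and by 2.96 in CD3e T cells, while in CLP it was higher than in MPP by 0.66.

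Cox4i2, an isoform known for its induction by low oxygen in lung, was a minor form everywhere. It was at 0.499, 1.12 and 1.17 CPM in ST-HSC, against 5.67, 6.02 and 5.07 in LT-HSC, with no overlap (log2 fold change -2.48, SE 0.15, edgeR adjusted p = 8.8e-32). Its share of Cox4i1 and Cox4i2 was 2.82% ± 0.21 in LT-HSC and at most 0.439% ± 0.18 elsewhere. Stromal and endothelial markers moved with it, with sums of 338 to 341 CPM in ST-HSC, against 3360 to 3372 in LT-HSC, all 8 counted in both, and their part was not tested. GMP held 4.29, 4.44 and 4.03 CPM of Cox4i2, a share of 0.302% ± 0.006, with stromal sums of 165 to 170. CLP, with stromal sums of 2112 to 2222, had a share of 0.296% ± 0.14.

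**Figure D5:**
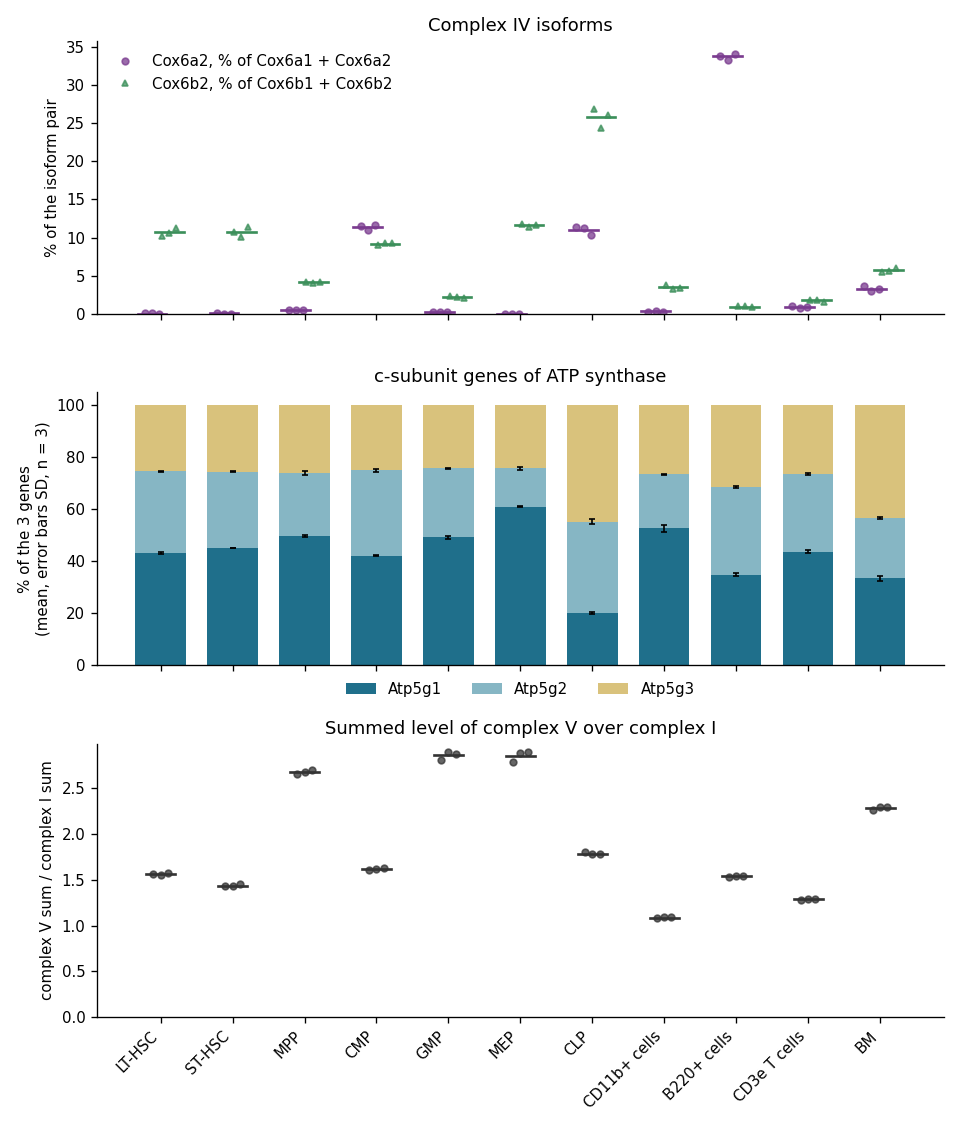
Top, share of Cox6a2 and of Cox6b2 in their isoform pairs by library; middle, mean share of the 3 c-subunit genes of ATP synthase, with SD of 3 libraries as error bars; bottom, summed level of complex V over complex I by library. Cox6a2 reaches 33.7% in B220+ cells, Cox6b2 25.8% and Atp5g3 44.8% in CLP, and Atp5g1 61.0% in MEP.

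The c-subunit of ATP synthase is made from 3 genes that encode the same mature protein behind different import signals. Atp5g1 took 61.0% ± 0.12 of their counts in MEP, 52.7% ± 1.2 in CD11b+ cells, 49.7% ± 0.34 in MPP and 49.2% ± 0.53 in GMP, and 20.2% ± 0.38 in CLP. In CLP Atp5g3 took 44.8% ± 0.60, as it did in BM with 43.3% ± 0.92, against 24.2% ± 0.44 to 31.5% ± 0.37 in the other 9 populations. The difference was unequal within the family: Atp5g1 was at 67.5, 68.6 and 71.0 CPM in CLP, against 384, 380 and 389 in MPP, and Atp5g3 was at 150, 151 and 157 CPM in CLP, against 201, 202 and 204 in MPP. B220+ cells and CD3e T cells had less Atp5g3 than CLP (log2 fold changes -0.35 and -0.82).

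Cox7a2l set against Cox7a2, the subunit it resembles, had a ratio of 2.87 ± 0.068 in CD3e T cells, 2.71 ± 0.029 in LT-HSC and 2.49 ± 0.049 in ST-HSC, and of 0.996 ± 0.026 in MEP and 0.935 ± 0.039 in CD11b+ cells. Cox7a1, the muscle form, was at most 0.962 CPM in any library, and Cox8a was the sole form of its subunit to pass the filter. Ndufa4, now counted as a complex IV subunit, passed as well, and Ndufa4l2 did not.

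Complex II, with no mitochondrially encoded subunit, moved as one in most comparisons. All 4 genes were higher in MPP than in ST-HSC, in GMP and MEP than in CMP, and in B220+ and CD3e T cells than in CLP, and all 4 were lower in CLP than in MPP and in CD11b+ cells than in GMP, although with library size alone 3 of the 4 were lower in MPP and none was called higher in GMP. Sdha was at 1378, 1304 and 1321 CPM in MEP, against 461, 457 and 461 in CMP (log2 fold change 1.54, SE 0.024). In CMP against MPP 3 fell and Sdhb, at 201 ± 7.8 CPM in CMP against 199 ± 3.3 in MPP, did not pass. This was not particular to complex II. By TMM all 8 nuclear genes of complex III, which also holds mt-Cytb, were called the same way wherever all 4 moved in 1 direction. The shares of all genes called are given with each comparison above.

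Some mitochondrial genes have near-identical copies in an annotated stretch of chromosome 1, and the authors' table holds counts for both loci. mt-Atp6, mt-Co2, mt-Co3, mt-Nd3 and mt-Nd4l match a copy over nearly their whole length and mt-Co1 and mt-Nd4 over part of it. mt-Co3 had 56755 counts over all libraries and its copy Gm28437 had 100092, and mt-Atp6 had 69022 and its copy Gm10925 had 156838. Libraries of 1 population differed widely in some of these genes: mt-Co2 was at 558, 245 and 231 CPM in MEP and at 72.1, 225 and 90.2 in CLP, whereas mt-Nd1 was at 10793, 9826 and 10117 and at 2907, 2708 and 2918. With the copies' counts added to their genes, the nuclear to mitochondrial ratio was 2.04 ± 0.034 in GMP and 0.856 ± 0.027 in MEP. Levels of mt-Co2, mt-Co3, mt-Atp6, mt-Nd3 and mt-Nd4l are therefore uncertain.

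Other genes of the pathway were described from lists of known genes. Of all genes 33.6% were called higher and 40.0% lower in MPP than in ST-HSC, and 31.8% and 41.9% in GMP than in CMP. The shares were 34.1% and 44.3% for MEP against CMP, and 41.3% and 32.8% for CD11b+ cells against GMP. Of 37 measured electron carriers and assembly factors 18 were higher and 7 lower in MPP than in ST-HSC, although with library size alone only 1 was higher. In GMP 25 were higher and 6 lower than in CMP, but 2 were higher with library size alone, and in MEP 32 were higher and 3 lower than in CMP, or 13 higher with library size alone. In CD11b+ cells 5 were higher and 28 lower than in GMP, and 22 were lower with library size alone. Cycs, which encodes cytochrome c, rose most in MPP, at 374 ± 5.5 CPM against 79.2 ± 0.47 in ST-HSC (log2 fold change 2.24, SE 0.031), and in GMP, at 799 ± 26 against 139 ± 2.8 in CMP (2.53). All 17 TCA cycle genes were higher in MPP than in ST-HSC and in MEP than in CMP, but with library size alone 2 were higher in MPP and 12 in MEP. All 17 were lower in CD11b+ cells than in GMP, or 16 with library size alone. Mdh2, the mitochondrial malate dehydrogenase, was at 1532 ± 38 CPM in MEP, against 321 ± 4.2 in CMP (2.25), and Suclg2, a subunit of succinyl-CoA ligase, at 31.4 ± 0.32 in CD11b+ cells, against 190 ± 7.5 in GMP (-2.61).

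The genes that copy and express mitochondrial DNA were counted in the same comparisons. In CMP against MPP, where 10 of 13 mitochondrial members rose, 12 of 28 measured genes of this list were higher and 8 lower, where 35.0% of all genes were called in each direction, although 26 were higher with library size alone. In GMP against CMP, where 10 of the mitochondrial members fell, 14 of the list were higher and 11 lower, with 31.8% and 41.9% of all genes called, although none was higher with library size alone. In MEP against CMP 21 were higher and 2 lower, with 34.1% and 44.3% of all genes called, or 11 higher with library size alone. Polg, the mitochondrial DNA polymerase, was at 86.7 ± 3.8 CPM in MEP, against 23.6 ± 0.64 in CMP (log2 fold change 1.88). In CD11b+ cells against GMP 19 were lower and 7 higher, with 32.8% and 41.3% of all genes called. Twnk, the replicative helicase, fell to 4.32 ± 0.18 CPM in CD11b+ cells, against 26.3 ± 1.7 in GMP (-2.60).

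Of the 9 regulators of mitochondrial biogenesis, 2 were higher and 7 lower in GMP than in CMP, with 31.8% and 41.9% of all genes called, and all 9 were lower with library size alone. More were also lower than higher in MPP against ST-HSC (2 higher and 6 lower, with 33.6% and 40.0% of all genes called). The same held against CLP for B220+ cells (3 and 6, with 39.5% and 42.5%) and CD3e T cells (4 and 5, with 40.5% and 41.7%). The counts went the other way in other comparisons. In CD11b+ cells 6 were higher and 2 lower than in GMP, with 41.3% and 32.8% of all genes called. In CMP 6 were higher and 1 lower than in MPP, with 35.0% of all genes called in each direction. In MEP 5 were higher and 3 lower than in CMP, with 34.1% and 44.3% called, and none was higher with library size alone. Ppargc1a, a coactivator of respiratory genes, was at most 4.84 ± 0.11 CPM in any population and had no count in MEP. Nrf1 and Gabpa were measured in all populations, at 56.5 ± 0.31 to 130 ± 2.0 and 48.4 ± 0.76 to 86.7 ± 0.83 CPM. In CLP 3 of these genes stood well above their levels in every other population: Esrra, an orphan nuclear receptor, was at 26.7 ± 2.4 CPM in CLP and at most 6.95 ± 0.8 elsewhere, Yy1 was at 173 ± 3.7 CPM in CLP and at most 39.4 ± 1.9 elsewhere, lower in B220+ cells than in CLP by 2.97 on the log2 scale, and Gabpb2, a partner of Gabpa, was at 269 ± 1.1 in CLP, against 31.7 ± 1.2 in MPP (3.08, SE 0.038) and at most 72.7 ± 1.1 elsewhere. CLP was also the highest population of 19.1% of all 20464 genes tested. Of the 13 coenzyme Q synthesis genes 10 were higher and 1 lower in GMP, and 9 and 3 in MEP, each against CMP. With library size alone 1 was higher in GMP and 6 in MEP. In CD11b+ cells 2 were higher and 10 lower than in GMP, or 9 lower with library size alone. The shares of all genes called in these comparisons are those given with the regulators.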

How the data were processed

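Read counts per gene were deposited by the authors for 33 libraries in 1 table. Per the submitters' processing notes cutadapt, HISAT2, HTSeq and DESeq2 were used with the mm39 build, and whether counting used strand is not given in the sources used here. Symbols of 52073 of 56748 IDs came from the GENCODE M21 annotation, which also gave exon lengths. The counts were fitted over all populations with edgeR 4.0.16 (R 4.3.3), after edgeR's filter on low counts had left 20464 genes, with TMM factors of 0.576 to 1.65, a robust quasi-likelihood fit with 22 residual degrees of freedom, and Benjamini-Hochberg adjustment at 0.05. Each comparison set a population against the one it is usually placed below. The totals of 11997186 to 32022325 counts set the precision, and values of a few counts are given without a fold.

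The members and lists were chosen with earlier results of these data known. Named were the largest rise and fall of each complex past the threshold with at least 10 CPM and no overlap, all mitochondrial members, complex II, the isoform families, and the extremes of the other lists. 1 gene that this rule names is not reported here. Atp5b, Uqcrc1, Ndufs1, Ndufaf5, Nrf1 and Gabpa were followed further after their values were seen, as was the plasmacytoid list. Copies were searched with blastn from 95% identity over 100 bases, and 99% counted as near-identical. At that level 27 nuclear and 7 mitochondrial members had a copy or an overlapping gene.

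The fit was tested on simulated counts for MPP against ST-HSC, with 50 genes at each fold: 82% of genes changed 1.5-fold, 94% at 2-fold and 100% at 4-fold and 8-fold were called in the simulated direction. Of 16970 genes simulated without change 0.06% were called. Few genes were changed, in random directions, and the spread was fixed above the 1.83% fitted here. In the data 73.6% of all genes were called in this comparison. The simulation therefore cannot tell whether a direction that depends on the scaling is right. Alternatives were other scalings, no filter, trends on GC content and length taken out, copies added, mitochondrial genes left out, the 2 populations alone, limma-voom (limma 3.58.1), DESeq2 1.42.0, a replicate block and each library left out; adding the copies and estimating the dispersion first were chosen after seeing the data.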

Additional observations from a re-analysis of the deposited data

Results flagged for a closer look

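Counts on annotated nuclear copies of mitochondrial genes lie outside the members and are well above 0. Over all 33 libraries the chromosome 1 copy held 156838 counts for mt-Atp6, 100092 for mt-Co3, 44851 for mt-Co1, 20416 for mt-Co2, 9024 for mt-Nd4, 1997 for mt-Nd3 and 1835 for mt-Nd4l. The genes themselves held 69022 counts for mt-Atp6, 56755 for mt-Co3, 7157813 for mt-Co1, 51334 for mt-Co2, 599684 for mt-Nd4, 20402 for mt-Nd3 and 2042 for mt-Nd4l. The copies of mt-Atp6 and mt-Co3 thus held more counts than the genes, whereas those of mt-Co1 and mt-Nd4 held far fewer. Which of the 2 loci the reads came from was not tested.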

How the results depend on the processing

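The same-numbered libraries did not deviate together (r from -0.043 to 0.097), and with the replicate block no count of calls moved by over 1.5 times and no named gene changed its call or sign, although 47 nuclear members were higher in ST-HSC than in LT-HSC, against 45 without it. With library size alone fewer nuclear members were higher in MPP than in ST-HSC (26) and in GMP than in CMP (47), 15 were lower in CMP than in MPP, and of the mitochondrial members 7 were higher in MPP than in ST-HSC, 3 higher in MEP than in CMP and 3 lower in CLP than in MPP. Signs turned with library size alone for mt-Nd5 (-0.46) and Sdhd (-0.46) in MPP against ST-HSC, mt-Nd1 in CLP against MPP (0.16), and mt-Nd1 (-0.13) and mt-Co1 (-0.44) in MEP against CMP. With trends on GC content and length taken out, 40 nuclear members were lower in CMP and 3 mitochondrial ones lower in CLP, each against MPP, 0 mitochondrial ones were higher in ST-HSC than in LT-HSC, and signs turned for mt-Nd1 in CLP against MPP (0.14), mt-Nd5 in MEP against CMP (0.11) and Ndufv3 in CD11b+ cells against GMP (-0.11). The 2 mitochondrial members higher in ST-HSC became 1 with relative log expression factors, no filter, copies added, limma-voom or DESeq2, and 1 to 2 with a library left out. The fit of the 2 populations alone left 5 mitochondrial members lower in B220+ cells than in CLP.

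The ratio of nuclear to mitochondrial counts without the Ndufaf genes was 0.904 in LT-HSC, 0.953 in ST-HSC, 0.798 in MPP, 0.308 in CMP, 0.674 in CD3e T cells, 0.624 in B220+ cells and 0.554 in BM. With copies added it was 0.910 in LT-HSC, 0.958 in ST-HSC, 0.783 in MPP, 0.306 in CMP, 2.04 in GMP, 0.856 in MEP, 0.676 in CD3e T cells, 0.623 in B220+ cells and 0.550 in BM. The cause of these shifts was not tested.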
